A study of Mus musculus with 4 samples.

Results

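This account describes 10 genes for transcription factors of endothelial and blood cells, out of 18323 genes named on the array. They were taken as a fixed set by gene symbol: the SoxF genes Sox7, Sox17 and Sox18, the ETS genes Erg, Fli1 and Etv2, the blood regulators Tal1, Lyl1 and Lmo2, and Tcf15. Of the 10 genes, 9 were measured by 12 named probes, and Tal1 had no probe named here. One pair of pools came from HP1g-/-; Blimp1-mVenus tg mouse embryos at embryonic day 11.5, and the other pair from wild-type; Blimp1-mVenus tg embryos of the same day. All pools therefore carried the reporter transgene for Blimp1 (Prdm1), which marks whichever cells use that gene's control regions. HP1g-/- (HP1γ-/- in the plots) came from a modified gene trap in Cbx3, the gene of the heterochromatin protein HP1γ. mVenus-positive cells were sorted from genital ridges, 500 to 3500 cells per embryo, and RNA of 5 or 6 embryos was joined in each pool. There were 2 independent pools per genotype, each measured on 1 one-colour Agilent array.

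SoxF proteins bind DNA through an HMG box and are known for arterial and lymphatic vessel development. ETS proteins bind sites with the core GGAA, and most endothelial genes are known to carry such sites in their control regions. Tal1 and Lyl1 are closely related basic helix-loop-helix factors that bind DNA in a complex with Lmo2 and GATA factors, and in the mouse embryo this complex is needed for blood formation. Outside vessels, SOX17 is known in human embryos as a factor that specifies primordial germ cells.

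A level here is a probe's log2 signal minus the 75th percentile of its array, so a level of 0 equals that percentile. That percentile was 125 and 291 intensity units on the HP1g-/- arrays and 188 and 219 on the wild-type arrays, and 53.8% and 63.3% of the spots, against 53.3% and 56.7%, were well above background. The labels call the cells primordial germ cells. All 14 endothelial markers and all 11 leukocyte markers measured were well above background on every array. Of 9 germ cell markers, 9 and 2 were well above background in HP1g-/- replicates 1 and 2, against 8 in each wild-type pool. HP1g-/- replicate 2 goes most against its label, and results are also given without it. Summed linear levels of the 14 endothelial markers were 300 and 393 times the 75th percentile (HP1g-/-), against 515 and 566 times (wild type). Those of the 9 germ cell markers were 26.5 and 0.739 times, against 7.43 and 2.70 times. Endothelial signal thus exceeded germ cell signal in all 4 pools, so leaving out HP1g-/- replicate 2 does not leave a comparison of germ cells alone. Cbx3 was 104-fold lower in the HP1g-/- pools by probe A_51_P160328 (limma adjusted p = 0.044) and 225-fold lower by A_51_P117162 (limma adjusted p = 0.0989). These folds rest on dim HP1g-/- signals: the log2 difference of -6.70 by A_51_P160328 was -5.47 with normexp background correction and lost its call whichever array was left out, and that of -7.82 by A_51_P117162 was -8.59 without HP1g-/- replicate 1 and -7.05 without HP1g-/- replicate 2. Precision is limited by there being 4 arrays. Standard errors and p-values rest on the spread between the 2 pools of each genotype, which limma draws toward the spread typical of all tested probes. In pooled cells fewer cells of a type cannot be told apart from less RNA per cell.

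The comparison asked whether the levels of these factors differed in cells without HP1γ. By the brightest probe of each gene, 8 of the 9 measured factors had lower means in the HP1g-/- pools and Etv2 had a higher one. The 2 pools of each genotype did not overlap for 7 of the lower factors, while for Lyl1 they did. The median log2 difference of the 9 was -0.53, and that of all 12115 named genes tested was -0.02. Lower without overlap were 20.8% of those genes, and a lower mean was found in 53.1%. No factor passed the test across the whole array: limma called 0 of the 9, against 0.00891% of all 22438 probes. Without HP1g-/- replicate 2, 8 of the 9 were again lower, with a median of -0.45, and Sox7 differed by -0.28, Sox17 by -0.45, Sox18 by -0.59 and Fli1 by -0.45. At an unadjusted p under 0.05 with all arrays there were 3 factors (Tcf15, Sox18 and Fli1), where 7.27% of all named genes had one and 2.46% had one with a lower mean.

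**Figure D1:**
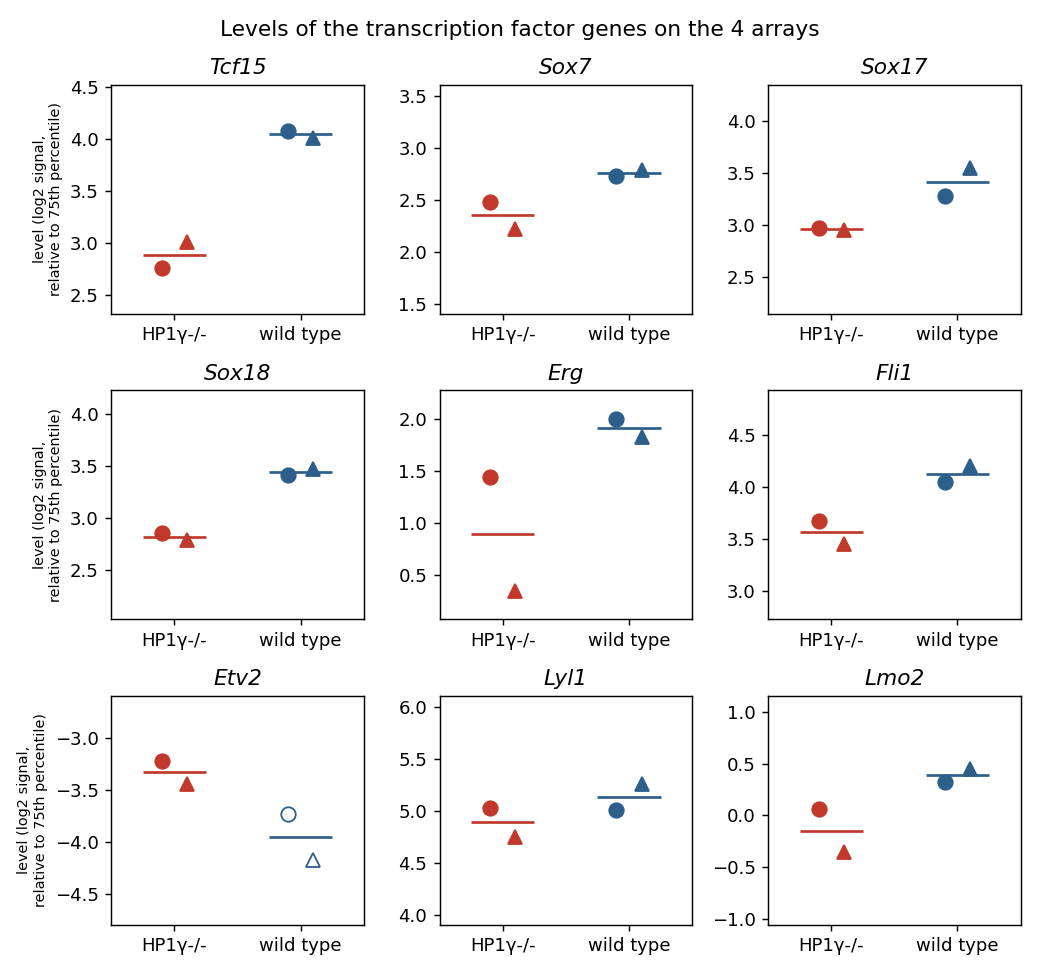
Level of each measured factor (vertical axes, log2 signal relative to the array's 75th percentile, each panel spanning the same range) in the HP1g-/- pools (red, left) and the wild-type pools (blue, right). Circles are replicate 1, triangles replicate 2, lines the mean of 2 pools, and open symbols were not well above background. Both red points lie below both blue points for 7 factors, Lyl1 overlaps and Etv2 lies the other way.

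Tcf15, a basic helix-loop-helix factor of paraxial mesoderm and of capillary endothelium in the mouse, had the largest difference of the 9. It read 2.76 and 3.01 in the HP1g-/- pools, against 4.08 and 4.01 in the wild-type pools. The smallest gap between an HP1g-/- and a wild-type array was 1.00, several times the distance between the pools of either genotype. The log2 difference was -1.16 with SE 0.21 and a 95% interval of -1.72 to -0.61, or 2.24-fold lower, and it did not pass (limma adjusted p = 0.373). Without HP1g-/- replicate 1 it was -1.04, and without HP1g-/- replicate 2 it was -1.29. Before scaling, its intensities were 841 and 2340 units in the HP1g-/- pools and 3170 and 3530 units in the wild-type pools, so no wild-type array was as dim as an HP1g-/- array on that scale either. Of 7 markers of paraxial mesoderm, 1 and 4 were well above background in HP1g-/- replicates 1 and 2, against 2 in each wild-type pool, and their part in the Tcf15 difference was not tested. No array had Pax3, Uncx or Myf5 well above background, while HP1g-/- replicate 2 had Meox1, Tbx18, Pax1 and Tbx6 (named after their values were seen). The 2 that passed the filter on dim probes had a median of -0.15, which was 0.48 without HP1g-/- replicate 1 and -0.79 without HP1g-/- replicate 2. They were Meox1, at -0.48, and Tbx6, at 0.18. Meox1 passed only through the wild-type pools, so the sign of that median is partly set by the filter.

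Among the SoxF genes, Sox18, which is known for lymphatic and blood vessel development, read 2.86 and 2.79 in the HP1g-/- pools, against 3.42 and 3.47 in the wild-type pools. Pools of the same genotype differed by far less than the genotypes did. Its log2 difference was -0.62 with SE 0.19, a 95% interval of -1.13 to -0.11 and a limma adjusted p of 0.607. Sox7, a SoxF gene of early vessels, read 2.48 and 2.22 in the HP1g-/- pools, against 2.73 and 2.79 in the wild-type pools. The groups did not overlap, but the gap of 0.25 was about as wide as the distance between the HP1g-/- pools. The difference was -0.41 with SE 0.21 (limma adjusted p = 0.756).

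Sox17, a factor of arterial endothelium that also acts in endoderm, had 3 probes, all with lower means but of different sizes. By its brightest probe, A_52_P279368, it read 2.97 and 2.95 in the HP1g-/- pools, against 3.28 and 3.55 in the wild-type pools, a difference of -0.46 with SE 0.21 (limma adjusted p = 0.732). By A_51_P273667 it read 0.83 and 1.33 in the HP1g-/- pools, against 1.18 and 1.34 in the wild-type pools. These groups overlapped, and the difference of -0.18 became 0.07 without HP1g-/- replicate 1. By A_52_P365096, a dim probe, it read -3.70 and -3.77 in the HP1g-/- pools, against -2.07 and -2.34 in the wild-type pools. The signal was not well above background in HP1g-/- replicate 1, and the difference of -1.53 (SE 0.21, limma adjusted p = 0.235) shrank to -0.34 with normexp background correction, which draws dim signals together. This dim probe passed the filter only through the wild-type arrays, where it was high, so its direction gives no support for a difference. The 3 probes thus gave different sizes for 1 gene.

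The ETS gene Erg, known for keeping endothelial junctions and identity, had the second largest difference and the widest spread. It read 1.44 and 0.35 in the HP1g-/- pools, against 2.00 and 1.83 in the wild-type pools. Both HP1g-/- pools lay below both wild-type pools, but they lay far apart from each other (mean 0.90 ± 0.78 in HP1g-/- pools and 1.92 ± 0.12 in wild-type pools, SD, n = 2 each). The log2 difference was -1.02 with SE 0.42, 2.03-fold lower, with a 95% interval of -2.14 to 0.10 (limma adjusted p = 0.690). The size depended on which HP1g-/- pool was used: without HP1g-/- replicate 2 the difference was -0.47, and without HP1g-/- replicate 1 it was -1.57. Erg and Tcf15 were the 2 factors at least 2-fold lower without overlap, as were 0.636% of all named genes tested.

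Fli1, an ETS factor of endothelium, megakaryocytes and other blood cells and a close relative of Erg, read 3.67 and 3.45 in the HP1g-/- pools, against 4.04 and 4.20 in the wild-type pools. Its difference was -0.56 with SE 0.21 (limma adjusted p = 0.664, unadjusted p = 0.0498). A second probe, A_52_P821, gave 3.1 and 2.64 in the HP1g-/- pools, against 3.30 and 3.54 in the wild-type pools, a difference of -0.55, so both probes had nearly the same size and neither overlapped. Without HP1g-/- replicate 2 this probe gave -0.32. Etv2, a factor that in the mouse starts the blood and vessel lineages and is then switched off, was at the edge of detection. It read -3.22 and -3.44 in the HP1g-/- pools, against -3.73 and -4.17 in the wild-type pools, neither of which counted as well above background. Etv2 passed the filter on dim probes only through the HP1g-/- arrays, where it was high, so its direction gives no support for a difference, and its fitted 0.62 was 0.15 with normexp and quantile normalization and 0.08 with scaling to spiked-in RNA. Higher without overlap were 17.7% of all named genes.

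Upstream sequences of these genes are shown because ETS factors are known to act on one another's control regions, and in the mouse on that of Lyl1. RefSeq windows of assembly GRCm38.p6, from 250 bases before to 50 bases after a transcription start, were at hand for 4 of the 10 genes, and those of Erg (3 starts), Etv2 and Lyl1 are printed 5′ to 3′ along the gene. Capitals mark the ETS core GGAA or, on the other strand, TTCC. The Erg windows lie on the minus strand at chr16:95586544-95586843 (first), chr16:95530316-95530615 (second) and chr16:95459299-95459598 (last), the Etv2 window on the minus strand at chr7:30635803-30636102 and the Lyl1 window on the plus strand at chr8:84701207-84701506.
Erg first start: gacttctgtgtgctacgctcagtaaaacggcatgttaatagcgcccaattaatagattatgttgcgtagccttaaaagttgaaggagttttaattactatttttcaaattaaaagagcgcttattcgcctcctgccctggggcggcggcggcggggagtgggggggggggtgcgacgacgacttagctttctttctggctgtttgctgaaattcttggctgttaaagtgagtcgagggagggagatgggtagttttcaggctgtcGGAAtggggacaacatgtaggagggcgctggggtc
Erg second start: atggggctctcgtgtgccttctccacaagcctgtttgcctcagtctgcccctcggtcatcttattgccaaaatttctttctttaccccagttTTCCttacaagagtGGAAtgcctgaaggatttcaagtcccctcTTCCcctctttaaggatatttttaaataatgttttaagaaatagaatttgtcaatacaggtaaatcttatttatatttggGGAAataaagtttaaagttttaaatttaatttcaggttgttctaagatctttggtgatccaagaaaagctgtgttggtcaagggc
Erg last start: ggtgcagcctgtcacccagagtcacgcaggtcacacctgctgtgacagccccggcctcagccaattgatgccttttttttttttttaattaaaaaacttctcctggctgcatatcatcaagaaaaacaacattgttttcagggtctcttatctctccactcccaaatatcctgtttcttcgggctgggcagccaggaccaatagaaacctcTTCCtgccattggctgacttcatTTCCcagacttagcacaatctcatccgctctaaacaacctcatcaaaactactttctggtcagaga
Etv2: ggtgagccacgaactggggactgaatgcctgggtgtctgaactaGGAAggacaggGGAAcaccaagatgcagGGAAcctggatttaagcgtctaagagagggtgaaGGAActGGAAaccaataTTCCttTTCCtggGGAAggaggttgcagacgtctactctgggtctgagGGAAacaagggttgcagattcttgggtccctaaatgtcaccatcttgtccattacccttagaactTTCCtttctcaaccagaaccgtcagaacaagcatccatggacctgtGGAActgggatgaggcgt
Lyl1: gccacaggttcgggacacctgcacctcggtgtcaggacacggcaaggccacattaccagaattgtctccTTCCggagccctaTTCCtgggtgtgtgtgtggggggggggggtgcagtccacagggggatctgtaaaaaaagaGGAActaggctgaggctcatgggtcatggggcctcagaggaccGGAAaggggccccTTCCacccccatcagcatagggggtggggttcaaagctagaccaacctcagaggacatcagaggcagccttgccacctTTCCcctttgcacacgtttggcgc
The core occurred 1, 4 and 2 times in the Erg windows, 11 times in that of Etv2 and 6 times in that of Lyl1. At least 1 match was held by 96% of all 32851 promoter windows, whose median was 3, so a match as such does not set a window apart. The Sox core ACAAT, searched on both strands, occurred 2 times in the last Erg window and 1 time in that of Lyl1 (31% of all windows hold it). In the printed windows the GATA motif AGATAA occurred 1 time, in the last Erg window (11.2% of all windows hold it). The windows of Tal1, which was not measured, are not printed. Each of them held the ETS core 4 times, and that at chr4:115056176-115056475 held the GATA motif 1 time. No base was shared between matches of different motifs. None of these windows was measured for binding here.

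Among the blood regulators, Lyl1 was nearly level between the genotypes. It read 5.03 and 4.75 in the HP1g-/- pools, against 5.01 and 5.26 in the wild-type pools, so HP1g-/- replicate 1 lay just above wild-type replicate 1. Its difference was -0.24 with SE 0.23 and a 95% interval of -0.84 to 0.36 (limma adjusted p = 0.876). Without HP1g-/- replicate 2 it was -0.10, and without HP1g-/- replicate 1 it was -0.38. Lmo2, a LIM-domain protein that bridges Tal1 or Lyl1 to GATA factors, read 0.06 and -0.35 in the HP1g-/- pools, against 0.32 and 0.45 in the wild-type pools. The groups did not overlap, and HP1g-/- replicate 2 was the lower pool. The difference was -0.53 with SE 0.24 (limma adjusted p = 0.725), and it was -0.33 without HP1g-/- replicate 2 and -0.74 without HP1g-/- replicate 1.

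**Figure D2:**
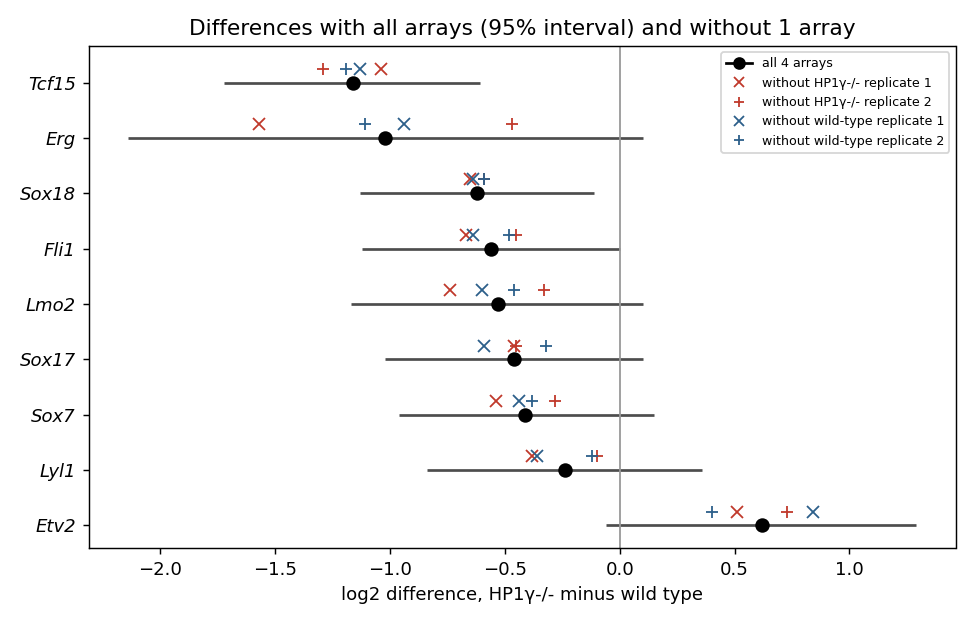
Log2 difference (HP1g-/- minus wild type, horizontal axis) of each factor, with its 95% limma interval as a line, and the difference when 1 array is left out as crosses and plus signs. The intervals of Tcf15, Sox18 and Fli1 lie below 0, that of Fli1 only just. The values of Erg range from -1.57 to -0.47 depending on which HP1g-/- pool is used.

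The 2 HP1g-/- pools were not alike for these genes. Of the 8 factors well above background on all arrays, 7 were lower in HP1g-/- replicate 2 than in HP1g-/- replicate 1 and Tcf15 was the exception, while 54% of all named genes tested were lower in that pool. Endothelial markers went the other way, 13 of 14 being higher in HP1g-/- replicate 2. Leukocyte markers were lower there in 8 of 11 cases, the 4 megakaryocyte markers tested in all 4 and the 8 germ cell markers tested in all 8. Stromal markers were higher there in 8 of 9 cases and erythroid markers in 5 of 5. The part of these cells in the factors' difference between the 2 pools was not tested.

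Between genotypes, endothelial markers had the same sign as most of the factors, and their part in the factors' differences was not tested. Among all named genes tested, 53.1% had a lower mean and 20.8% were lower without overlap. The counts of endothelial markers follow. All 14 endothelial markers were lower in the HP1g-/- pools, 13 without overlap. Their median difference was -0.63 (-0.44 without HP1g-/- replicate 1 and -0.85 without HP1g-/- replicate 2). Their median levels were 4.18 and 4.45 in the HP1g-/- pools, against 4.95 and 5.05 in the wild-type pools. Their summed linear level was 300 and 393 times the 75th percentile in the HP1g-/- pools, against 515 and 566 times in the wild-type pools. The factors were therefore also expressed relative to the marker median of the same array, a scaling chosen after the data were seen. On that scale 7 of the 9 factors had higher means in the HP1g-/- pools and 2, Tcf15 and Erg, had lower ones, with a median difference of 0.15, where the median of all probes was 0.62. Tcf15 stood at -1.42 and -1.45 in the HP1g-/- pools, against -0.88 and -1.04 in the wild-type pools, a difference of -0.48 (limma adjusted p = 0.210), and by leading probes it was the only factor still lower without overlap. The dim Sox17 probe A_52_P365096 was also lower without overlap, at -7.87 and -8.22 in the HP1g-/- pools, against -7.02 and -7.38 in the wild-type pools. Because it passed the filter on dim probes only through the wild-type arrays, that direction gives no support for a difference. On this scale 0.528% of all named genes were lower without overlap and 79.3% were higher. Sox18 stood at -1.32 and -1.66 in the HP1g-/- pools, against -1.53 and -1.58 in the wild-type pools, and its difference was 0.07. For Erg the same values were -2.73 and -4.11, against -2.95 and -3.22 in the wild-type pools, so only HP1g-/- replicate 2 lay below wild type. Lyl1 was higher without overlap on this scale, as was Etv2, again not well above background in wild type. None of the 9 passed the test on it.

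**Figure D3:**
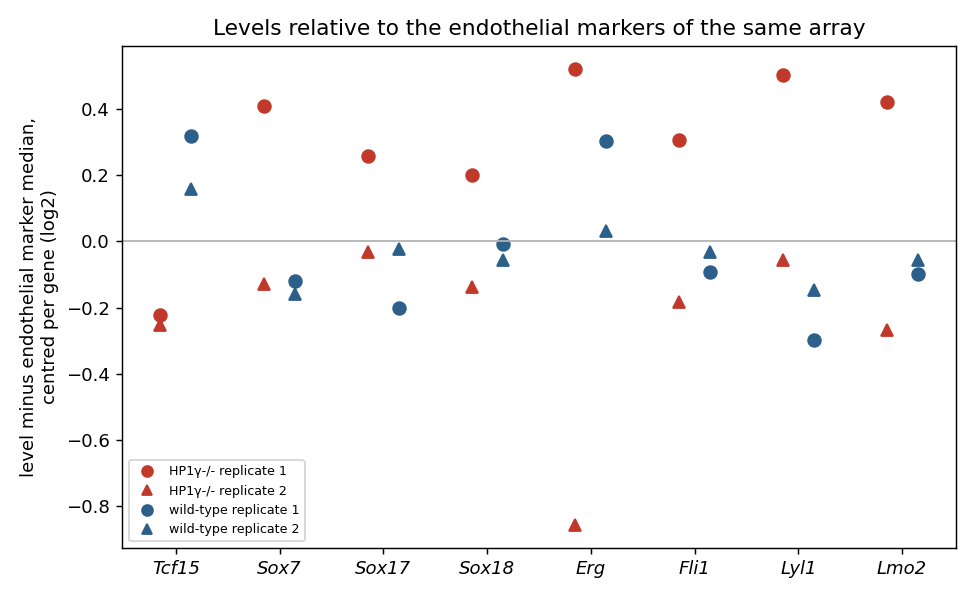
Level of each factor minus the median level of 14 endothelial markers on the same array, centred per gene (vertical axis, log2), for the 8 factors well above background on all arrays (circles replicate 1, triangles replicate 2). Tcf15 is the gene whose HP1g-/- pools (red) both lie below both wild-type pools (blue).

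Relatives, partners and targets of the factors were followed in lists of related genes. No gene of these lists passed the limma test over all probes, and the counts at an unadjusted p under 0.05 are given for each list. Of all named genes tested, 53.1% had a lower mean, 20.8% were lower and 17.7% higher without overlap, and 7.27% had an unadjusted p under 0.05. Of 13 other ETS factors tested, 10 were lower and 3 higher, 7 and 1 of them without overlap, with a median of -0.29 (-0.45 without HP1g-/- replicate 1) and 4 at an unadjusted p under 0.05. Ets1, a broadly acting ETS factor of endothelium and lymphocytes, differed by -0.70, Elk3 by -0.66 and Elf4 by -0.72 (limma adjusted p = 0.625, 0.581 and 0.629), and Elf4, a dim probe, by -0.26 with normexp background correction. Of 10 other Sox factors tested, 4 were lower and 6 higher, with a median of 0.09 (-0.13 without HP1g-/- replicate 1 and 0.39 without HP1g-/- replicate 2) and 1 at an unadjusted p under 0.05. Sox2, among the lower ones, and Sox5, among the higher ones, passed the filter on dim probes only through the wild-type pools. These counts are therefore partly set by the filter, and among probes well above background on all arrays the median was 0.12. Sox6, which is known for red cell maturation, read -2.04 and -1.75 in the HP1g-/- pools, against -2.90 and -2.72 in the wild-type pools, opposite to the SoxF genes. Its difference was 0.91 (limma adjusted p = 0.517), or 0.46 with normexp background correction, while Sox9 differed by 0.34 and Sox13 by -0.22.

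Of 12 other vascular transcription factors tested, 9 were lower, 8 of them without overlap, and 3 were higher, with a median of -0.46 and 2 at an unadjusted p under 0.05. Prox1, the lymphatic endothelial regulator that Sox18 activates in the mouse, read -3.01 and -3.77 in the HP1g-/- pools, against -1.94 and -2.42 in the wild-type pools. Its difference of -1.21 had an SE of 0.36 (limma adjusted p = 0.584). For this dim probe it was -0.46 with normexp background correction and -0.83 without HP1g-/- replicate 2. Hhex and Bcl6b differed by -0.60 and -0.78, and Bcl6b by -0.41 without HP1g-/- replicate 1. The 16 endothelial target genes of SoxF and ETS factors, 10 of which are also among the endothelial markers, were all lower, 14 without overlap, with a median of -0.60 (-0.31 without HP1g-/- replicate 1 and -0.85 without HP1g-/- replicate 2) and 4 at an unadjusted p under 0.05. The VEGF receptor gene Flt1 differed by -0.66, the vessel guidance receptor gene Robo4 by -0.83 and the adhesion gene Pecam1 by -0.78.

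Of 4 tested genes known in the mouse as targets of Tcf15 with its partner Meox2, all were lower, 2 without overlap, with a median of -0.47 and 2 at an unadjusted p under 0.05. Lower means were found in 53.1% of all named genes tested, 20.8% were lower without overlap and 7.27% had an unadjusted p under 0.05. Meox2 itself was well above background only in HP1g-/- replicate 2 and wild-type replicate 2, so it did not pass the filter on dim probes. The fatty acid transporter gene Cd36 read -1.05 and -1.47 in the HP1g-/- pools, against -0.45 and -0.07 in the wild-type pools. It differed by -1.0 with SE 0.27 (limma adjusted p = 0.541). Gpihbp1, which carries lipoprotein lipase across capillaries, differed by -0.70 and the lipase gene Lpl by -0.25. Fabp4, the brightest of the list, differed by -0.01, so the 4 genes did not share 1 size.

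**Figure D4:**
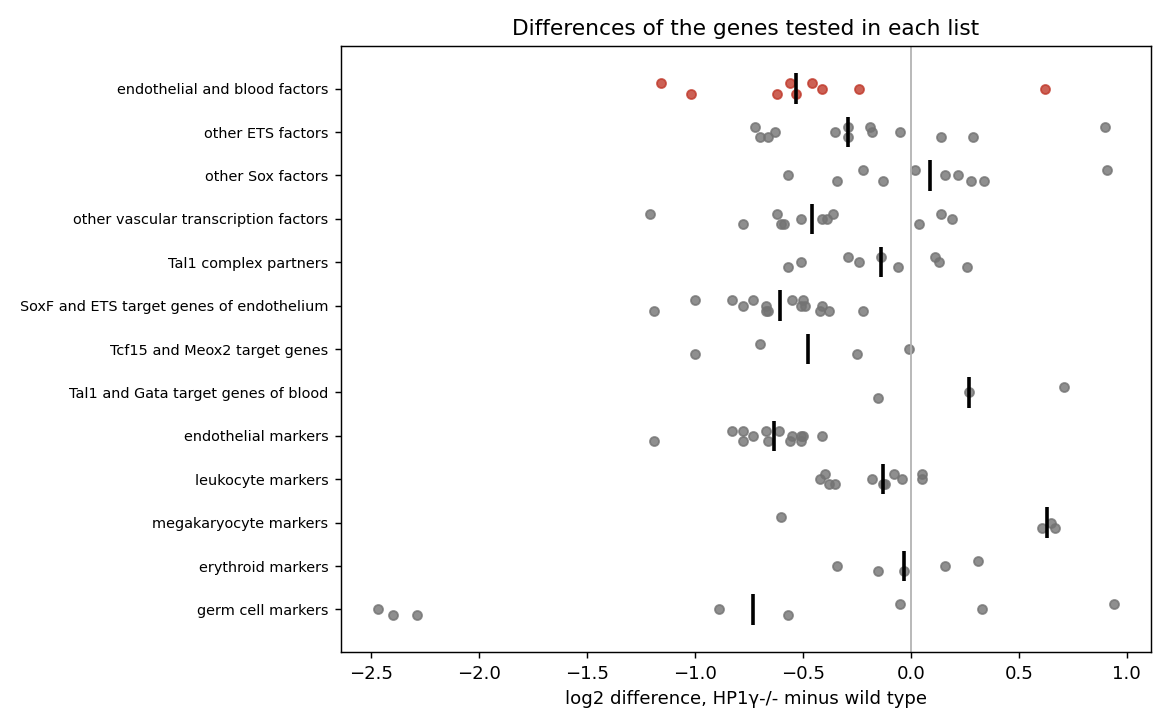
Log2 difference (HP1g-/- minus wild type, horizontal axis) of each tested gene, by list (rows), with list medians as black bars and the 9 measured factors in red. The factors' median is -0.53, that of the endothelial markers -0.63 and that of the leukocyte markers -0.13.

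The blood side was thinner. Its counts stand beside shares over all named genes tested of 53.1% with a lower mean, and of 20.8% lower and 17.7% higher without overlap. Of 9 partners of the Tal1 complex tested, 6 were lower and 3 higher, 3 and 2 of them without overlap, with a median of -0.14 (-0.05 without HP1g-/- replicate 1 and -0.21 without HP1g-/- replicate 2) and 0 at an unadjusted p under 0.05. Gata2, the GATA factor of blood stem cells and endothelium, read 0.78 and 0.61 in the HP1g-/- pools, against 1.35 and 1.06 in the wild-type pools, a difference of -0.51 (limma adjusted p = 0.708). Cbfa2t3 differed by -0.57 (-0.34 without HP1g-/- replicate 1) and Lmo4 by 0.26. No array had the red cell factor Gata1 well above background, nor the red cell genes Klf1, Epb42 and Gfi1b. Of 12 Tal1 and GATA target genes of blood, 11 had a named probe and 3 passed the filter on dim probes. Those 3 had a median of 0.27 (0.01 without HP1g-/- replicate 1 and 0.53 without HP1g-/- replicate 2). Nfe2, a factor of megakaryocytes and red cells, read -0.29 and -0.44 in the HP1g-/- pools, against -1.13 and -1.01 in the wild-type pools, a difference of 0.71 (limma adjusted p = 0.559, and 0.46 with normexp and quantile normalization) and the 1 gene of the list at an unadjusted p under 0.05. Epor differed by -0.15 and Myb by 0.27.

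Markers of other cells in the pools were measured beside the factors, and their part in these differences was not tested. Over all named genes tested, 20.8% were lower and 17.7% higher without overlap, and 53.1% had a lower mean. Leukocyte markers were lower for 9 of 11, 3 without overlap, with a median of -0.13 (-0.26 without HP1g-/- replicate 1), and their summed level was 324 and 262 times the 75th percentile in the HP1g-/- pools, against 316 and 365 times in the wild-type pools. Of 6 megakaryocyte markers 4 were tested, 1 lower and 3 higher, with a median of 0.63 that was -0.20 without HP1g-/- replicate 1 and 1.08 without HP1g-/- replicate 2. Gp1bb, among the higher ones, passed the filter on dim probes only through the HP1g-/- pools, so that count is partly set by the filter. The megakaryocyte median was 0.65 among probes well above background on all arrays and 0.23 with normexp background correction. Pf4, a platelet chemokine gene that macrophages also express, was the brightest megakaryocyte marker, at 6.61 and 6.17 in the HP1g-/- pools, against 6.91 and 7.08 in the wild-type pools. Of 8 erythroid markers 5 were tested, 3 lower and 2 higher, with a median of -0.03. That value averages unlike pools: it was 0.50 without HP1g-/- replicate 1 and -0.75 without HP1g-/- replicate 2, and all 5 were higher in HP1g-/- replicate 2 than in HP1g-/- replicate 1. Germ cell markers had summed levels of 26.5 and 0.739 times the 75th percentile in the HP1g-/- pools, against 7.43 and 2.70 times in the wild-type pools. Stromal markers had median levels of -0.20 and 1.49 in the HP1g-/- pools, against 0.18 and -0.76 in the wild-type pools, and 9 of 9 tested had higher means, 1 without overlap. HP1g-/- replicate 2 carried this: their median difference of 0.70 was -1.03 without it and 1.92 without HP1g-/- replicate 1. Gonadal somatic markers had summed levels of 4.59 and 8.51 times the 75th percentile in the HP1g-/- pools, against 3.52 and 2.29 times in the wild-type pools. The 4 tested had higher means, but Wnt4 passed the filter on dim probes only through the HP1g-/- pools, so that count is partly set by the filter.

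Among 11302 genes well above background on all arrays, the 5 whose levels over the 4 arrays came closest to the median pattern of the factors were Dram2, Rgs2, 2810025M15Rik, Mogat2 and Atp6v1a. Their root mean square distances, after centring each gene, lay between 0.020 and 0.026 on the log2 scale. Rgs2, a regulator of G protein signalling, read 5.06 and 4.79 in the HP1g-/- pools, against 5.35 and 5.49 in the wild-type pools. With 4 arrays such a match is a description only.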

How the data were processed

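Expression was measured in 4 pools of sorted mVenus-positive genital ridge cells, 2 HP1g-/- and 2 wild-type, grouped by the genotype in the titles. Amplification started at 4 ng of pooled RNA, and the dye was Cy3, per the labels' protocols. Per the file headers, the deposited intensity values came from Agilent Feature Extraction 10.7.3.1, which subtracted background and detrended within arrays and did not scale across them. Intensity in the authors' series table was on a linear scale and uncentred, equal to these signals within 0.497%, with medians of 14.5 and 33.4 (HP1g-/-) and 20.6 and 22.6 (wild type). All arrays lay on 1 slide. No source says that equal replicate numbers share a litter or day.

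Computed here were log2 signals minus each array's 75th percentile over 43379 spots that are not controls. Marked outlier spots were dropped, which removed 21 of 41174 probes, and spots of a probe were averaged. The 22438 probes that both arrays of a genotype, either one, showed well above background entered a fit by limma 3.58.1 (R 4.3.3) (eBayes, two-sided), with p-values adjusted by Benjamini-Hochberg across these probes at a threshold of 0.05, after a test on simulated data. Accessions were matched without versions to RefSeq symbols of GRCm38.p6, naming 26880 probes. The array design names another build, so genes carry no coordinates. A gene's leading probe has the highest mean over all 4 arrays. Named genes are the members, Cbx3, and from each list of relatives, partners and targets the 3 with the smallest unadjusted p; for marker lists only the brightest is named, or genes that stayed dark. Fabp4 is named as the brightest of its list and Meox2 as the partner of Tcf15. Gp1bb, Wnt4, Meox1, Sox2 and Sox5 are named for passing the filter on dim probes through a single genotype. Lists are described by counts and medians. Members and lists were chosen with earlier results of these data known. Python 3.11.15 with pandas 2.3.3 read the tables. For normexp (offset 50) the spot median was used in place of the planned spot mean.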

Additional observations from a re-analysis of the deposited data

How the results depend on the processing

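Limma called 2 probes of the whole array, both lower. It called 133 with scaling to spiked-in RNA (28 lower), 54 with scaling to the endothelial marker median (5 lower), 5 with normexp and quantile normalization (4 lower), 7 with a trend in eBayes (4 lower), 1 among probes well above background on all arrays and 0 with no filter on dim probes (1474 at an unadjusted p under 0.05). Without any 1 replicate it called 0, although 607 to 5643 probes had an unadjusted p under 0.05. With the replicate number as a block it called 13 (5 lower), and no member changed its call. The deviations of same-numbered arrays correlated at 0.0666 over the tested probes. A single correlation from 4 arrays cannot decide whether same-numbered pools share a litter or day. No leading probe of a member passed under any alternative run. The dim Sox17 probe A_52_P365096 passed with spiked-in scaling alone (-2.07, limma adjusted p = 0.0411). Since it was tested only through the wild-type arrays, where it was high, this call gives no support for a difference.

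The members' median difference of -0.53 was -1.07 with spiked-in scaling, where the median of all probes was -0.60, -0.42 with normexp and quantile normalization, 0.15 with endothelial scaling and between -0.65 and -0.45 without 1 replicate. In all other settings run, 8 of the 9 members were lower. Among probes well above background on all arrays, Etv2 was not tested, and the other members were all lower. With endothelial scaling, chosen after the data were seen, signs turned for Sox7 (0.28), Sox17 (0.23 by its leading probe and 0.51 by A_51_P273667), Sox18 (0.07), Fli1 (0.13 by both probes), Lyl1 (0.44) and Lmo2 (0.15), and for Gata2 (0.17), Cbfa2t3 (0.11), Elk3 (0.02), Sox13 (0.46), Hhex (0.09), Flt1 (0.03), Epor (0.54) and Lpl (0.43). With spiked-in scaling they turned for Lmo4 (-0.28), Sox9 (-0.20) and Myb (-0.27). Without 1 replicate, Sox17 by A_51_P273667 ranged between -0.42 and 0.07 and Epor between -0.44 and 0.14. The cause of these shifts was not tested. Signal near background limits Etv2 and the dim Sox17 probe.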
